A study of Mus musculus with 15 samples.

Results

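Of the 15 libraries of this mouse brain series, 10 carried strong markers of the cerebral cortex or of the olfactory bulb, and these were compared with each other across all genes. They were chosen on their own counts, since every sample is labelled only as brain, from a hemisphere. The cortex-marker libraries were the 3 with Neurod6 at 90 CPM or more, where CPM is the count of a gene as a share of the library total on the usual scale. They were WT female 2, WT male 4 and TG male 4. The olfactory-marker libraries were the 7 with Omp at 20 CPM or more, namely WT males 1 and 2, WT females 1 and 4, TG female 2 and TG males 1 and 3. No library met both rules, and the other 5 met neither.

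TG stands for homozygous PLP-α-synuclein mice, which carry human α-synuclein under the PLP promoter, active in oligodendrocytes. WT stands for C57Bl/6 mice without the transgene. All were 12 months old, and library totals ran from 15766779 to 21401727 counts. The cortex-marker side held 2 WT and 1 TG library from 2 males and 1 female, and the olfactory-marker side 4 WT and 3 TG libraries from 4 males and 3 females. TG on the cortex-marker side is therefore 1 mouse. The transgene's own expression was not analysed here.

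The cerebral cortex is built mainly of excitatory glutamatergic projection neurons arranged in layers, with a minority of inhibitory interneurons born in the ventral forebrain. The olfactory bulb has the opposite balance. Axons of olfactory sensory neurons in the nose enter it wrapped by ensheathing glia and contact the mitral and tufted cells, its excitatory output neurons. Far more numerous granule and periglomerular cells, which are inhibitory, surround these and are renewed in adult life by neuroblasts that migrate in from the ventricle wall.

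The values that chose the sides left a gap around each threshold. The lowest Neurod6 level inside was 120.2 CPM in WT female 2 and the highest outside was 56.6 CPM in WT male 2. The lowest Omp level inside was 44.0 CPM in WT male 1 and the highest outside, over all 15 libraries, was 2.77 CPM in TG female 1. Below, CPM is scaled by the library total adjusted with TMM, a factor that balances library composition. A difference is the log2 value of cortex-marker over olfactory-marker libraries from a fit with genotype as covariate, given with its SE. Levels are CPM and not per length, so they compare libraries and not genes. In tissue RNA, fewer cells of a type and less RNA per cell cannot be told apart.

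The 4 markers that named the sides followed these labels. Neurod6, a transcription factor of cortical excitatory neurons, lay at 171, 130 and 136 CPM in WT male 4, then WT female 2, then TG male 4, the order used for the cortex-marker side throughout. On the olfactory-marker side it lay at 4.33 to 55.3 CPM with a median of 14.7. Fezf2, which specifies deep-layer output neurons, lay at 86.0, 78.2 and 40.5 CPM against 2.71 to 27.2. Omp, the olfactory marker protein of mature sensory neurons, lay at 1.48, 0.325 and 0.516 CPM against 42.7 to 158 with a median of 89.8. Eomes, a transcription factor of mitral and tufted cells, lay at 6.72, 0.217 and 0.0574 CPM against 53.9 to 156 with a median of 143. Neurod6 and Omp chose the sides, and the sides did not overlap in Fezf2 and Eomes either. In addition, 3 WT males lay nearest the other side in some of these markers. WT male 4 had the most Omp and Eomes of its side, and WT male 2 the most Neurod6 and Fezf2 of its side. WT male 1 had the least Omp and Eomes of its side, with Neurod6 at 20.5 and Fezf2 at 7.18 CPM, both under WT male 2.

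**Figure D1:**
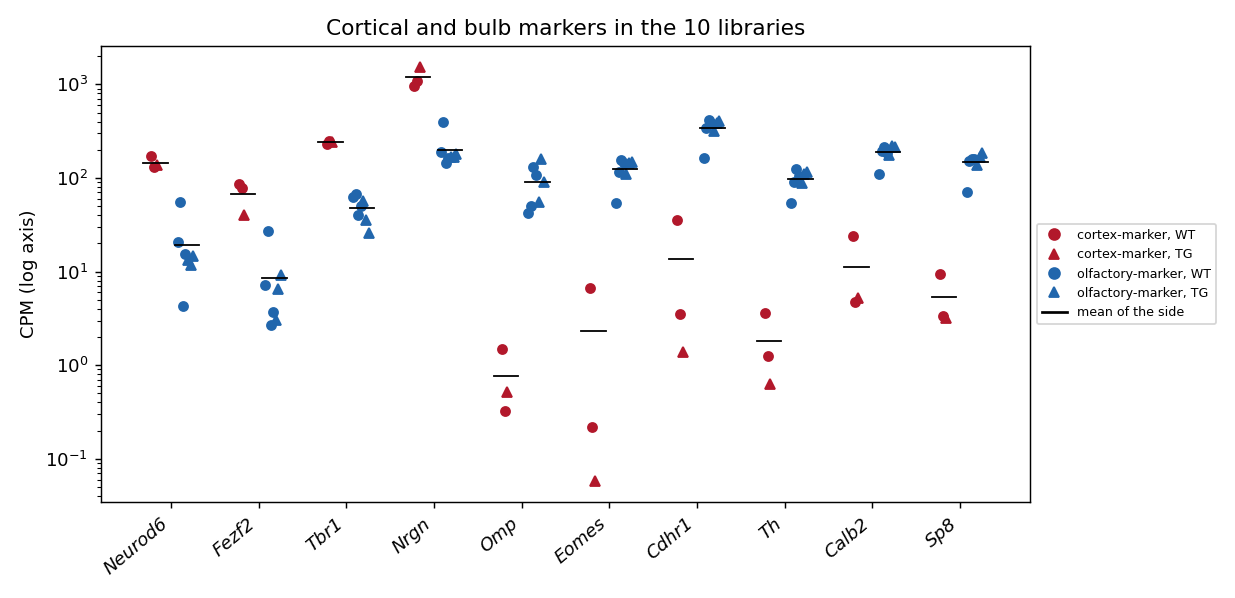
Levels in CPM (log axis) of 4 cortical and 6 olfactory bulb genes, 1 point per library, with circles for WT, triangles for TG and a line at the mean of each side. Neurod6 and Omp chose the sides. In each of the 10 genes shown the highest point of one colour lies below the lowest of the other, and the largest spread on a log axis is that of Eomes on the cortex-marker side, from 0.0574 to 6.72 CPM.

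Across the whole table the sides were far apart. The first principal component held 64.4% of the variance and put the cortex-marker libraries at 59.6 to 80.1 and the olfactory-marker libraries at -45.2 to -4.13, with WT males 1 and 2 nearest to the middle at -4.13 and -12.4. Correlations of log2 CPM over genes were 0.983 to 0.987 for pairs within the cortex-marker side, 0.965 to 0.991 within the olfactory-marker side and 0.924 to 0.966 for pairs of 1 library from each. Of 16625 genes with enough counts, 1893 (11.4%) were separated, meaning that every library of one side lay above every library of the other and that the difference was at least 1 in size. Of these, 824 (4.96% of genes tested) lay higher in the cortex-marker and 1069 (6.43%) in the olfactory-marker libraries. With library totals in place of TMM the median difference of all genes moved from -0.01 to -0.19 and the separated genes were 593 higher and 1401 lower in the cortex-marker libraries. Without the minimum of 1, 6484 genes (39%) did not overlap, 20.2% of those tested higher in the cortex-marker and 18.8% in the olfactory-marker libraries. These counts describe libraries that were chosen on measured values and carry no test. Counts for gene lists below are to be read beside the 11.4%, 4.96% and 6.43% of all genes. A list near these shares shows no trait of its members. Of the separated genes, 29 lay at least 3 log2 units higher in the cortex-marker libraries and 165 at least 3 higher in the olfactory-marker libraries.

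**Figure D2:**
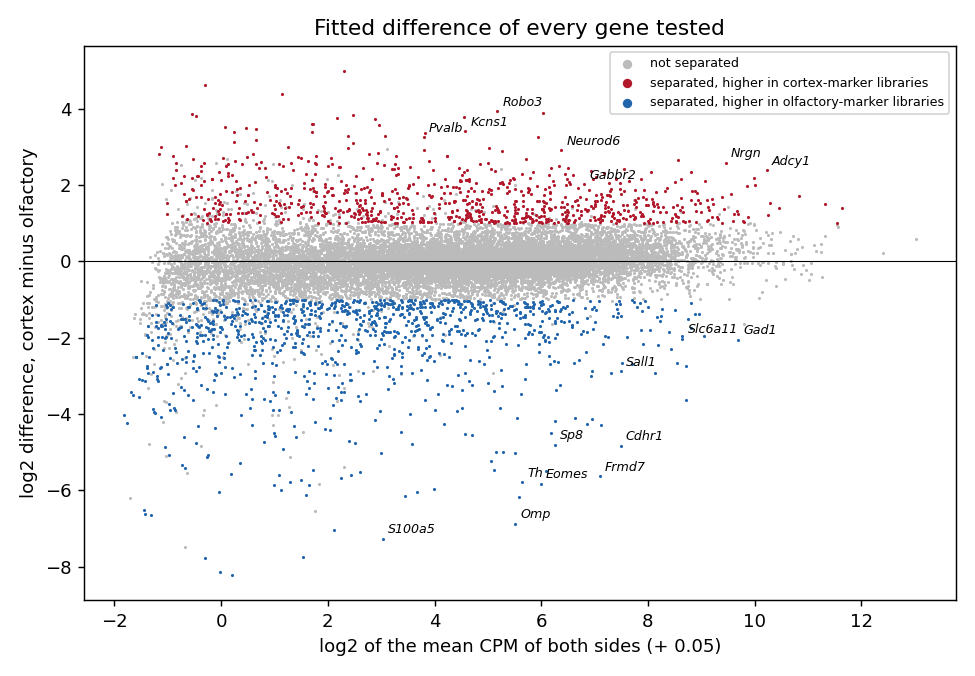
Difference of each of the 16625 genes in log2 units (positive values are higher in the cortex-marker libraries) against the log2 of its mean CPM over both sides plus 0.05. The 824 red and 1069 blue points are the separated genes, and more blue points than red lie beyond 3 log2 units.

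These WT males, 1, 2 and 4, set the edges of most separated genes. Of the 824 genes higher in the cortex-marker libraries, the lowest library of that side was WT male 4 for 405 (49.2%), and the highest library of the other side was WT male 2 for 374 (45.4%) or WT male 1 for 345 (41.9%). Of the 1069 genes higher in the olfactory-marker libraries, the highest cortex-marker library was WT male 4 for 658 (61.6%) and the lowest olfactory-marker library was WT male 1 for 649 (60.7%). Without these 3 libraries, a setting chosen after seeing the data, 2790 of 16755 genes were separated. Of these, 1218 lay higher in the cortex-marker and 1572 in the olfactory-marker libraries. Leaving out the libraries nearest the other side raised the count across the table, so list counts in this setting are to be read beside it.

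Short stretches of DNA show 2 genes that stood on opposite sides, one for each transmitter system. Th (chromosome 7, 142892779 to 142899995) encodes tyrosine hydroxylase, which makes the dopamine precursor in periglomerular cells, and a cyclic AMP response element before its start is a textbook control site. Neurod2 (chromosome 11, 98325415 to 98329645) is a basic helix-loop-helix factor of cortical excitatory neurons, and such factors bind E-boxes. The 250 bases before each start are RefSeq's on GRCm38.p6, on the minus strand, at chr7:142899996-142900245 for Th and chr11:98329646-98329895 for Neurod2. Capitals mark TGACGTCA at 45 to 38 bases before the start of Th, and CAGATG at 118 to 113 bases before the start of Neurod2.
Th: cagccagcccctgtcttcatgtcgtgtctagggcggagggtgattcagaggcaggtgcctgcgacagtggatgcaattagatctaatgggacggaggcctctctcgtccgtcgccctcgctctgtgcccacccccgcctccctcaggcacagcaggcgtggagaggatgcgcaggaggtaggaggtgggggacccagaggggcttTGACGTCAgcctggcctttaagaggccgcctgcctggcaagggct
Neurod2: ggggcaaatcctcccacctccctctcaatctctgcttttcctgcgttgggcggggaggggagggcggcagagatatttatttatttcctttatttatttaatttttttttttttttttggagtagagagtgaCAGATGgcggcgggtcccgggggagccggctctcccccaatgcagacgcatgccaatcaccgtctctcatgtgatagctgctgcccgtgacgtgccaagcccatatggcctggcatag
In the windows from the same table, TGACGTCA on either strand stood in 1.55% and CAGATG in 14.4% of 32851. Of the separated genes with a window, CAGATG was found in 14.4% of 571 higher in the cortex-marker and 14.5% of 786 higher in the olfactory-marker libraries, against 12.2% of 11115 not separated. TGACGTCA was found in 2.45%, 1.53% and 2.96%. The octamer ATGCAAAT, read by POU factors, stood in 1.58%, 3.82% and 1.32% of the same 3 groups, and in 1.60% of all windows. A match is a run of letters and not a bound site, and some windows hold several of the 7 motifs searched.

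Most genes of pallial excitatory neurons lay higher in the cortex-marker libraries. Of 15 on the list, all with enough counts, 13 were separated in that direction and 0 in the other, with a median difference of 1.96 against -0.01 for all genes tested. Neurod6, which chose the side, is 1 of the 13. The leading members after Neurod6 were Nrgn, a calmodulin-binding protein of dendritic spines, and the transcription factors Tbr1 and Neurod2. Nrgn lay at 966, 1098 and 1546 CPM against 145 to 394 with a median of 168, a difference of 2.59 ± 0.29. Tbr1 lay at 233, 250 and 243 CPM against 26.1 to 67.5 with a median of 50.7, a difference of 2.32 ± 0.22. Neurod2 lay at 173, 154 and 151 CPM against 16.6 to 52.6 with a median of 32.8, a difference of 2.26 ± 0.24. The 3 cortex-marker libraries lay close together in Tbr1 and Neurod2. Slc17a7, the vesicular glutamate transporter of cortical and also of mitral cells, differed less, at 1851, 1604 and 1668 CPM against 644 to 988. The members that were not separated were Neurod1 and Kcnh3.

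Layer markers split by layer and by gene. Of 12 upper-layer genes, 5 were separated higher in the cortex-marker libraries and 2 higher in the olfactory-marker libraries. Rorb, a nuclear receptor of layer 4, lay at 39.8, 61.0 and 131 CPM against 16.8 to 26.9, and its difference of 1.85 ± 0.29 was 1.10 without TG male 4. Pou3f1, a POU factor, differed by 1.81 ± 0.18. The 2 upper-layer genes on the other side were Mdga1, an adhesion protein, and Inhba, an activin subunit. Mdga1 lay at 22.4, 11.3 and 11.9 CPM against 102 to 191, a difference of -3.23 ± 0.28.

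Of 11 layer 5 genes, 4 were separated, all higher in the cortex-marker libraries, led by Fezf2 and Ldb2, a LIM-domain cofactor, at differences of 2.89 ± 0.56 and 2.38 ± 0.43. That of Fezf2 was 3.64 without WT male 2. Of 12 layer 6 genes, Tbr1 and Hs3st4, a heparan sulfate sulfotransferase, lay higher in the cortex-marker libraries, while Syt6 and Nxph4 lay higher in the olfactory-marker libraries. Syt6, a synaptotagmin, lay at 59.6, 33.8 and 20.2 CPM against 178 to 330 with a median of 305. Nxph4, a secreted neurexin ligand, lay at 0.574 to 7.20 CPM against 14.8 to 38.4, and its difference of -2.51 ± 0.51 was -1.89 without TG male 4. Genes that mark layers within the cortex thus stood on both sides of this contrast.

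The genes with the largest differences on the cortex-marker side came from several families. Robo3, a guidance receptor best known from commissural axons, lay at 39.5, 70.9 and 93.6 CPM against 1.98 to 9.81 with a median of 3.79, a difference of 3.93 ± 0.39. Ovol2, a zinc-finger factor, lay at 9.64 to 10.8 CPM against 0.0549 to 3.01, and its difference of 3.85 ± 0.71 was 5.26 without WT male 2. Ntn5, a netrin family member, lay at 3.58 to 19.0 CPM against 0.647 to 1.51. Igfn1, a protein with immunoglobulin and fibronectin domains, lay at 62.1, 123 and 150 CPM against 5.33 to 19.9. Trbc2, a T cell receptor constant region, lay at 12.7 to 16.4 CPM against 0.165 to 5.43. Tmem215, Myl4, Prdm8, Kcnk4 and Arhgap25 were also among the 15 genes with the largest differences and at least 10 CPM. The difference of Trbc2, 3.56 ± 0.74, was 4.94 without WT male 2, and that of Tmem215, 3.38 ± 0.62, was 2.09 without TG male 4 and 3.96 without WT male 4.

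Bulb interneuron genes stood on the olfactory-marker side as a group. Of 29, all with enough counts, 25 were separated in that direction and Calb1 alone in the other, with a median difference of -2.67. The 25 stayed 25 in number without the 3 mixed WT males. Th lay at 3.58, 1.25 and 0.631 CPM against 53.5 to 125 with a median of 104. Sp8, a zinc-finger factor needed for periglomerular cells, lay at 9.31, 3.36 and 3.21 CPM against 71.3 to 186 with a median of 159. Calb2, the calcium buffer calretinin, lay at 23.8, 4.71 and 5.17 CPM against 110 to 220 with a median of 195. Trh, the thyrotropin-releasing hormone precursor, lay at 5.86, 1.35 and 0.344 CPM against 66.8 to 84.8 with a median of 75.5. In each of these 4 genes WT male 4 was the highest of its side. The differences were -5.78 ± 0.48 for Th, -4.80 ± 0.45 for Sp8, -4.10 ± 0.54 for Calb2 and -5.00 ± 0.52 for Trh. Without WT male 4 they were -6.71, -5.52, -5.28 and -6.46.

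The transcription factors Dlx1, Dlx2, Dlx5, Dlx6, Sp9, Tshz1 and Pax6, which pattern these cells, were all separated and higher on the olfactory-marker side. Gad1, a GABA-synthesizing enzyme, lay at 257, 308 and 388 CPM against 877 to 1585 with a median of 1416, and Slc32a1, the vesicular GABA transporter, at 126, 125 and 158 CPM against 293 to 370. The differences were -2.05 ± 0.18 for Gad1 and -1.30 ± 0.09 for Slc32a1. Outside the list, Vipr2, a receptor for vasoactive intestinal peptide, lay at 2.65, 0.758 and 0.516 CPM against 38.2 to 130. Frmd7, a cytoskeletal protein tied to inherited nystagmus, lay at 10.7, 3.41 and 2.29 CPM against 122 to 368. Sp7, the bone factor osterix, lay at 2.22, 1.03 and 1.21 CPM against 32.6 to 93.3. Chrna10, Dnah11, Adamts19, Trdn, Klhl30, Ms4a15 and Shisa8 completed the 15 genes of this direction. On the cortex-marker side these 7 lay at no more than 5.24 CPM, the highest being Ms4a15 in WT male 4.

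**Figure D3:**
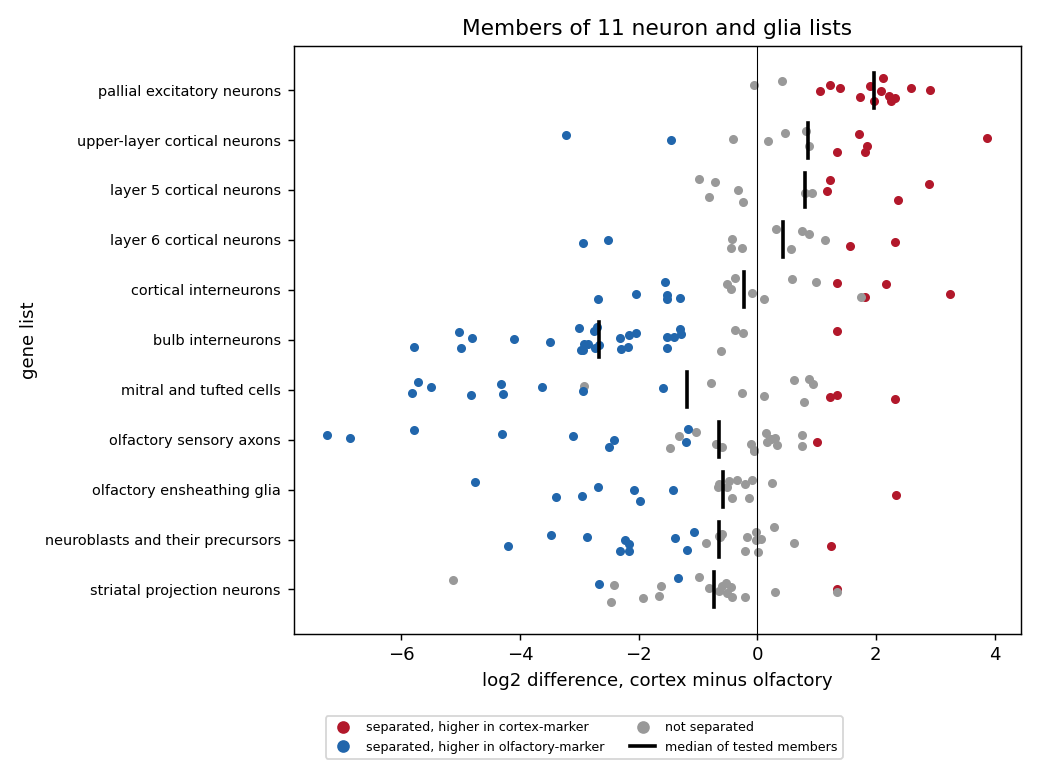
Differences in log2 units (cortex-marker minus olfactory-marker) of every tested member of 11 neuron and glia lists, 1 point per gene, coloured where separated, with a bar at the list's median. Pallial excitatory genes lie to the right with a median of 1.96 and bulb interneuron genes to the left with a median of -2.67, while lists such as mitral and tufted cells hold separated members on both sides.

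Genes of mitral and tufted cells were divided. Of 20, 9 were separated higher in the olfactory-marker and 3 in the cortex-marker libraries. Cdhr1, a protocadherin-like protein of mitral cells, lay at 35.8, 3.52 and 1.38 CPM against 163 to 415 with a median of 384. Shisa3, a membrane protein, lay at 4.81, 2.44 and 1.61 CPM against 52.1 to 183 with a median of 145. Barhl2, a homeobox factor, held 5 counts in all over the 3 cortex-marker libraries and lay at 3.26 to 6.54 CPM on the other side. WT male 1 was the lowest of its side in all 3. The differences were -5.82 ± 0.86 for Eomes, -4.83 ± 0.90 for Cdhr1 and -5.49 ± 0.50 for Shisa3. Without WT male 4 that of Eomes was -9.76 and that of Cdhr1 -7.14, and without TG male 4 they were -5.15 and -4.09. The 3 members on the cortex-marker side were Tbr1, Slc17a7 and Cck, which cortical neurons also express.

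Of 27 genes of olfactory sensory axons, 26 had enough counts, 9 were separated higher in the olfactory-marker libraries and 1 in the other direction. Omp, which chose the side, is 1 of the 9. S100a5, a calcium-binding protein of sensory neurons, held 5 counts in all over the cortex-marker libraries and lay at 6.94 to 23.5 CPM with a median of 19.7 in the others. Stoml3, a stomatin-like protein of sensory cilia, held 4 counts there and lay at 2.37 to 8.01 CPM. In Omp, S100a5 and Stoml3 the lowest olfactory-marker libraries were WT males 1 and 2. Sensory transduction genes that the brain also uses, such as Adcy3, Gnal and Gng13, were not separated. The summed CPM of the list, 4466 to 5488 against 2707 to 3672, ran the other way, and the list holds genes such as Gap43, which neurons in general express. Of 1126 odorant receptor genes in the table, 18 had enough counts, 4 of them separated higher in the cortex-marker and 6 in the olfactory-marker libraries. Over all genes tested the shares were 4.96% and 6.43%.

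Of 18 ensheathing glia genes, 7 were separated higher in the olfactory-marker libraries and 1, Aldh3a1, in the other direction. Foxd3, a neural crest transcription factor, lay at 1.23, 0.0542 and 0 CPM against 4.40 to 17.5. Fabp7, a fatty acid binding protein, lay at 13.2, 3.20 and 3.10 CPM against 39.7 to 95.1, a difference of -3.40 ± 0.46 that was -4.29 without WT male 4. Frzb, a secreted Wnt inhibitor, lay at 25.2, 18.5 and 41.9 CPM against 43.2 to 96.8. Sox10, shared with oligodendrocytes, was not separated. In neuroblasts, 10 of 23 genes were separated higher in the olfactory-marker libraries and 1, Stmn2, in the other direction. Dcx, a microtubule protein of migrating neurons, lay at 84.5, 96.2 and 80.6 CPM against 189 to 495 with a median of 402. Pbx3, a homeobox cofactor, lay at 10.4, 6.77 and 6.31 CPM against 79.6 to 188, a difference of -4.19 ± 0.30. Igfbpl1 lay at 1.54 CPM in WT male 4, had 0 counts in the other cortex-marker libraries, and lay at 3.74 to 6.37 CPM on the other side. The division markers Mki67, Top2a and Pcna were not separated.

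Of 18 cortical interneuron genes, 4 lay higher in the cortex-marker libraries, namely Pvalb, Satb1, Sst and Cck, and 6 lay higher in the olfactory-marker libraries. Pvalb, the calcium buffer of fast-spiking cells, lay at 12.7, 26.8 and 35.6 CPM against 1.52 to 3.44 with a median of 2.53, a difference of 3.26 ± 0.30 that was 2.62 without TG male 4. Sst, the peptide somatostatin, lay at 121, 101 and 115 CPM against 11.6 to 65.2 with a median of 23.5. The 6 on the other side were Gad1, Gad2, Slc32a1, Nos1, Adarb2 and Ndnf, and the first 4 were also on the bulb interneuron list. Hapln4, a link protein of the nets around fast-spiking cells, lay at 153 to 356 CPM against 45.5 to 87.9, while Adamts5, a protease that cuts such nets, differed by -2.92 ± 0.36. They were 2 of the 3 separated genes among 13 of the net list, and the third, Acan, lay higher on the olfactory-marker side.

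Of 18 AMPA, NMDA and kainate receptor subunits, Grik4 lay higher in the cortex-marker libraries and Grin2d in the olfactory-marker libraries. These 2 of 18 are near the share of all genes tested that were separated, 11.4%. Of 7 metabotropic receptors, Grm3 lay higher on the cortex-marker side and Grm4 on the other. Grin2d had a difference of -1.07, and -0.98 without TG male 4, under the minimum of 1 in size. Of 21 GABA and glycine receptor subunits, 2 lay higher on the cortex-marker side, Gabbr2 among them. Gabbr2, a subunit of the metabotropic GABA receptor, lay at 178, 177 and 183 CPM against 30.0 to 72.8 with a median of 33.8, a difference of 2.03 ± 0.26. Gabre, Gabrq and Glra4 lay higher on the olfactory-marker side, at no more than 8.93 CPM. For Gabrq that maximum was in WT male 1, the other 6 lying at 1.42 to 1.92 CPM, and its difference of -3.06 ± 0.78 was -2.38 without that library.

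Among 13 transmitter transporters with enough counts, Slc17a7 alone lay higher in the cortex-marker libraries, and Slc32a1, Slc6a11, Slc6a3 and Slc6a9 lay higher in the olfactory-marker libraries. Slc6a11, a GABA transporter of astrocytes, lay at 189, 136 and 149 CPM against 529 to 732, a difference of -2.03 ± 0.14. Slc6a3, the dopamine transporter, held 9 counts in all on the cortex-marker side and lay at 4.46 to 12.4 CPM on the other. Th and Slc6a3 were thus both on the olfactory-marker side. In the list of 22 dopamine and cyclic AMP genes, 4 were separated higher in the cortex-marker and 2 in the olfactory-marker libraries. Adcy1, a calmodulin-stimulated adenylyl cyclase, lay at 1738, 2338 and 1957 CPM against 281 to 574 with a median of 361, a difference of 2.39 ± 0.19. Pde1a, a calmodulin-dependent phosphodiesterase, differed by 2.11 ± 0.32 and its relative Pde1c by -2.50 ± 0.21. These phosphodiesterases of 1 family thus lay on opposite sides.

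Of 41 potassium channel genes, 7 were separated higher in the cortex-marker and 4 in the olfactory-marker libraries. Kcns1, a silent subunit that modifies other channels, lay at 21.0, 37.8 and 72.4 CPM against 2.42 to 6.98, a difference of 3.41 ± 0.37 that was 2.74 without TG male 4. Kcnj9, an inward rectifier gated by G proteins, differed by 1.65 ± 0.17, and Kcna5 and Kcnb2 by -2.58 ± 0.33 and -1.66 ± 0.23. Of 26 neuropeptide and granin genes, 3 lay higher in the cortex-marker libraries and 5 in the olfactory-marker libraries. Penk, the enkephalin precursor, lay at 61.4, 27.9 and 56.8 CPM against 200 to 437 with a median of 316. Nmb, neuromedin B, differed by -2.93 ± 0.29. Gal, galanin, held 3 counts in all on the cortex-marker side and lay at 1.36 to 5.55 CPM on the other.

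Of 42 axon guidance genes, 10 were separated higher in the cortex-marker and 5 in the olfactory-marker libraries. Beside Robo3 the former included the Eph receptors Ephb2, Epha4, Ephb1 and Epha7, the plexins Plxnd1 and Plxna1, and Sema7a. The latter were Epha3, Ntn4, Ntng1, Sema3c and Epha5. Ephb2 lay at 18.5 to 22.1 CPM against 3.73 to 8.69, and Epha3 at 2.33 to 3.89 CPM against 7.78 to 20.9. Of 49 forebrain patterning transcription factors with enough counts, 8 lay higher in the cortex-marker libraries and 22 in the olfactory-marker libraries, with a median difference of -1.18. The 8 included Fezf2, Tbr1, Emx1 and Lhx2. Emx1, a homeobox factor of the dorsal forebrain, lay at 13, 18.1 and 23.9 CPM against 3.44 to 7.57. The 22 included Meis1, a homeobox cofactor, at 2.24 to 3.15 CPM against 19.9 to 53.6, with 4 Zic genes and the Dlx genes named above.

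Of 15 astrocyte genes, Agt, Gfap and Aqp4 were separated, all higher in the olfactory-marker libraries, with a list median of -0.02. Aqp4 had a difference of -1.11, and -0.99 without WT female 1, under the minimum of 1 in size. Gfap, the astrocyte filament, lay at 117, 109 and 66.4 CPM against 161 to 330 with a median of 241. Of 20 oligodendrocyte genes 1, Apod, was separated, higher in the olfactory-marker libraries. The list ran the other way, with 16 of the 20 differences positive and a median of 0.50. Of 12 precursor genes 1, Lhfpl3, was separated, at 22.0 to 32.2 CPM against 86.0 to 108. Of 15 microglia genes with enough counts, 2 were separated, Sall1 and Itgax. Sall1 lay at 50.9, 42.0 and 34.9 CPM against 162 to 404, a difference of -2.87 ± 0.28. Sall1 is a microglial identity factor that neural cells also use. Csf1r, Cx3cr1, P2ry12 and Tmem119 had differences between -0.01 and 0.16. Of the 15 microglia genes 5 had a positive difference, with a median of -0.07. The summed CPM of that list was 1351 to 1616 on the cortex-marker side and 2066 to 2645 on the other. Among 16 endothelial and pericyte genes, 6 blood genes and 23 cytosolic ribosomal protein genes 0 were separated. The counts of this paragraph stand beside 11.4% of all genes tested that were separated.

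**Figure D4:**
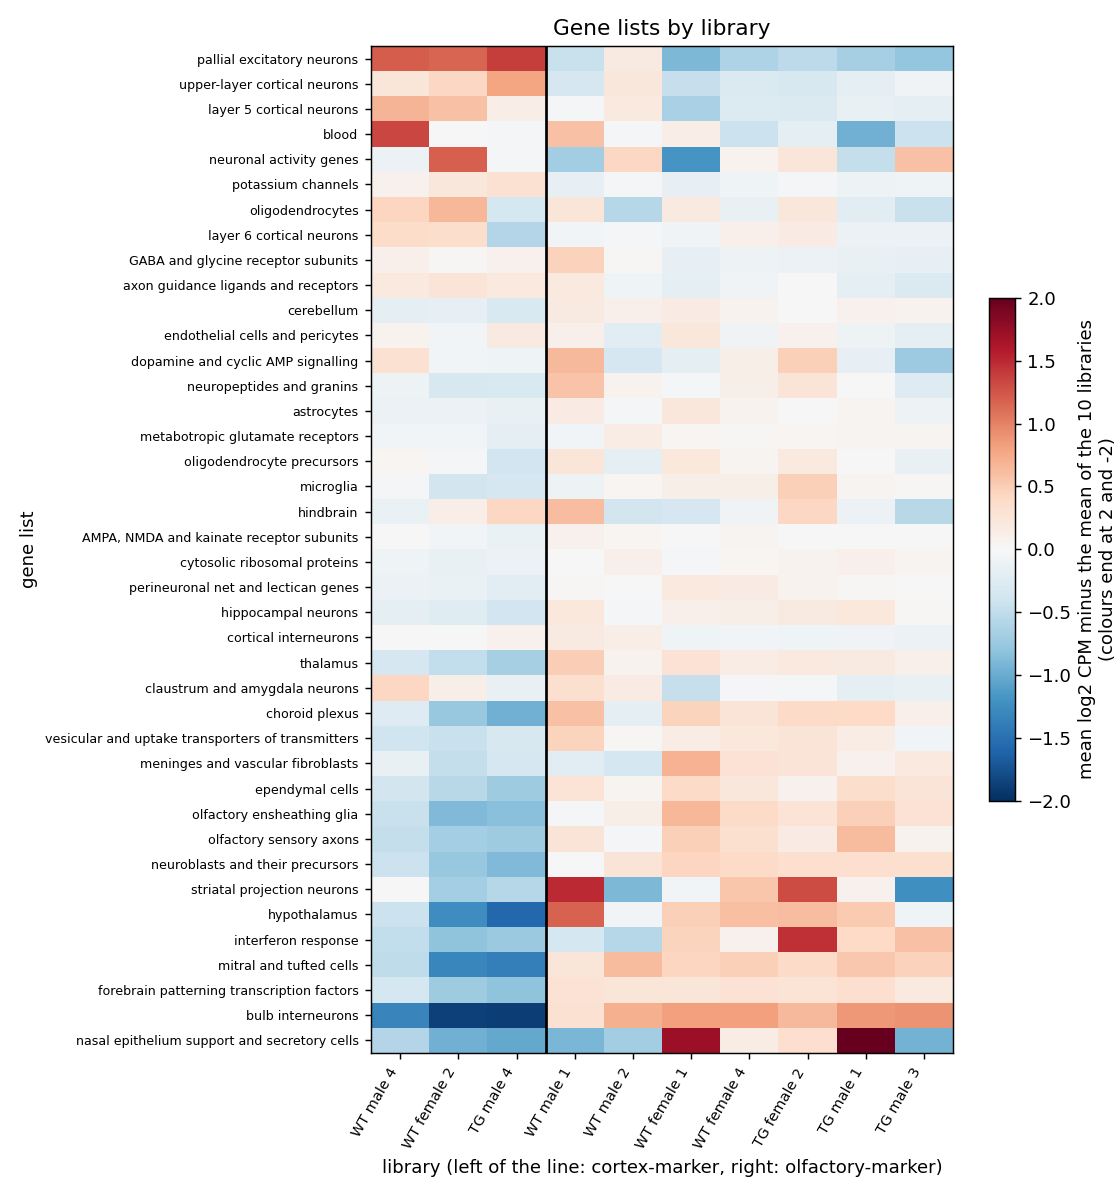
Mean log2 CPM of 40 gene lists in each library after subtracting the mean of the 10 libraries (red above, blue below, colours end at 2 and -2), with the cortex-marker libraries left of the line. Pallial excitatory neurons are red on the left and bulb interneurons blue, WT males 1 and 2 are paler than their side, and the striatal, nasal and interferon lists vary from library to library on the right.

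Of 32 interferon response genes 6 were separated, all higher in the olfactory-marker libraries, and 0 had a positive difference, with a median of -1.15. Without WT males 1, 2 and 4, 25 were separated, beside 2790 of 16755 genes in all. Oasl2, an antiviral enzyme relative, lay at 4.81, 2.44 and 3.33 CPM against 5.29 to 64.9 with a median of 19.5. The maximum was in TG female 2, and WT males 1 and 2 had the 2 lowest levels of their side, at 7.78 and 5.29 CPM. All 3 TG libraries of that side, at 21.5 to 64.9 CPM, lay above its 4 WT libraries, at 5.29 to 19.5 CPM. The difference of Oasl2, -2.28 ± 0.63, was -2.88 without WT male 4 and -1.69 in WT libraries alone. Mx1 and Mx2, named for antiviral dynamin-like proteins, are typed in RefSeq as transcribed pseudogenes. Mx1 lay at no more than 0.802 CPM on the cortex-marker side and at 0.965 to 5.76 CPM on the other. Mx2 lay at no more than 1.11 CPM against 1.27 to 3.29 CPM in WT and 5.18 to 9.45 CPM in TG olfactory-marker libraries. In Mx1 WT and TG libraries of that side overlapped. Neither Oasl2 nor Mx2 passed for genotype with side as covariate, each with an adjusted p of 0.669 in edgeR. The list's mean log2 CPM was 1.91 to 2.23 on the cortex-marker side and 2.16 to 4.19 on the other, the highest being TG female 2, and its part in the difference was not tested.

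Of 22 neuronal activity genes, 4 were separated, all higher in the cortex-marker libraries, namely Dusp6, Bdnf, Egr3 and Homer1, with a list median of 0.67. The count was 6 without WT males 1, 2 and 4, beside 2790 of 16755 genes in all. The difference of Egr3 was 0.83, under the minimum of 1, without WT female 2, and that of Homer1 was 0.85 without TG male 4 and 0.99 without WT male 1 or WT female 1. Arc, an immediate early gene of synapses, lay at 527, 1588 and 990 CPM against 178 to 704 and was not separated. Fos lay at 70.5, 557 and 89.6 CPM against 44.2 to 220. WT female 2 held the most Fos and Arc of the 10 libraries. Egr3, a zinc-finger factor induced by firing, lay at 121, 212 and 114 CPM against 21.2 to 102.

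Markers of neighbouring tissue varied within the olfactory-marker side. Of 20 striatal projection neuron genes, 1 was separated higher in the cortex-marker and 2 in the olfactory-marker libraries, and their summed level ran from 712 to 2741 CPM on the olfactory-marker side and from 1004 to 1233 CPM on the other. Without WT males 1, 2 and 4 the separated striatal genes were 2 and 7, beside 2790 of 16755 genes in all. Drd1, the dopamine D1 receptor, lay at 89.9 CPM in WT male 1, 72.5 in TG female 2 and 40.1 in WT female 4, and at 4.91 CPM in TG male 3 and 8.39 in WT male 2. Adora2a, the adenosine receptor of D2 neurons, lay at 62.2 and 61.6 CPM in WT male 1 and TG female 2 and at 6.43 to 27.0 CPM in the other 5. The same libraries led in both genes, and 1 of them is WT and the other TG. On the cortex-marker side WT male 4 led in Drd1 and Adora2a, at 35.2 and 11.8 CPM. Penk, listed for both striatal and bulb neurons, was highest in the same 2 libraries, at 396 CPM in WT male 1 and 437 in TG female 2. The part of striatal content in its difference of -2.67 ± 0.31 was not tested, and its lowest olfactory-marker library, WT male 2 at 200 CPM, had a striatal sum of 722 CPM.

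Of 14 nasal epithelium genes, 7 had enough counts and 1, Cyp2g1, was separated. Cyp2g1, an olfactory mucosa cytochrome, held 0 counts in the 3 cortex-marker libraries and lay at 8.28 CPM in TG male 1, 5.53 in WT female 1 and 0.0603 to 0.659 CPM in the other 5. In WT male 1 its level was under the limit of 3 counts, 0.187 CPM, so its place among the separated genes rests on too few counts to be firm. Cyp2a5, a related enzyme, lay at 25.6 and 13.3 CPM in the same 2 and at 0 to 3.59 CPM elsewhere on that side. Bpifb9a, a secreted protein of nasal glands, lay at 35.7 CPM in TG male 1 and at 0.0539 to 1.56 CPM in the other 6. These 2 libraries also held the most Omp, at 158 CPM in TG male 1 and 132 in WT female 1. Of the 7 tested genes of this list the median difference was -4.48, from levels that 2 libraries dominate. Without WT males 1, 2 and 4, 8 were tested and 4 separated, beside 2790 of 16755 genes in all. Krt5 and Krt15, keratins of basal cells, did not pass the filter on low counts.

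Of 13 hippocampal genes tested, 4 lay higher in the olfactory-marker libraries, Cpne7, Dsp, Fibcd1 and Zbtb20. Of 9 claustrum and amygdala genes Rspo2 lay higher on the cortex-marker side and Synpr on the other. Of 12 thalamus genes 3 lay higher in the olfactory-marker libraries, among them Calb2 and Zic1, which bulb interneurons share. Cerebellum genes tested numbered 13, with 2 higher in the cortex-marker and 5 in the olfactory-marker libraries, Pvalb and Zic1 among them. Of 14 hindbrain genes 4 had enough counts, and of 39 Hox genes 0 did. Of 7 hypothalamus genes tested, 2 lay higher on the olfactory-marker side, Trh and Gal, and of 9 choroid plexus genes Aqp1 and F5 did. Of 8 ependymal genes Dnah11 was separated, of 15 meningeal genes Aldh1a2, and the only pituitary gene tested, Pomc, was not. Aldh1a2 had a difference of -1.06, but -0.96 without WT female 1, -0.998 without WT female 4 and -0.88 without TG male 4, each under 1 in size. Without WT males 1, 2 and 4 the genes higher on the olfactory-marker side were 6 for the meninges, 4 for the choroid plexus and 3 for the hypothalamus. In that setting 1572 of 16755 genes were separated higher on that side. With all 10 libraries, 64 of 805 noncoding genes tested lay higher in the cortex-marker and 89 in the olfactory-marker libraries. Over all genes tested in the 10 libraries, 4.96% lay higher on the cortex-marker and 6.43% on the olfactory-marker side. These shares also belong beside the 10-library list counts of this paragraph.

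The cortex-marker libraries also differed among themselves. Rorb ran from 39.8 CPM in WT male 4 to 61.0 in WT female 2 and 131 in TG male 4, and Kcns1 and Pvalb had the same order. Rspo1, a Wnt agonist, lay at 3.27, 19.8 and 22.6 CPM against 0.824 to 4.95, and Scnn1a, a sodium channel subunit, at 3.21, 7.58 and 8.55 CPM against 0.916 to 3.20. Fezf2 ran the other way, at 40.5 CPM in TG male 4 against 78.2 and 86.0. The layer 6 list had its lowest mean log2 CPM of all 10 libraries in TG male 4, at 4.61, and its highest in WT male 4 at 5.56. With 1 TG library on this side, genotype and the differences between these 3 libraries cannot be told apart.

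**Figure D5:**
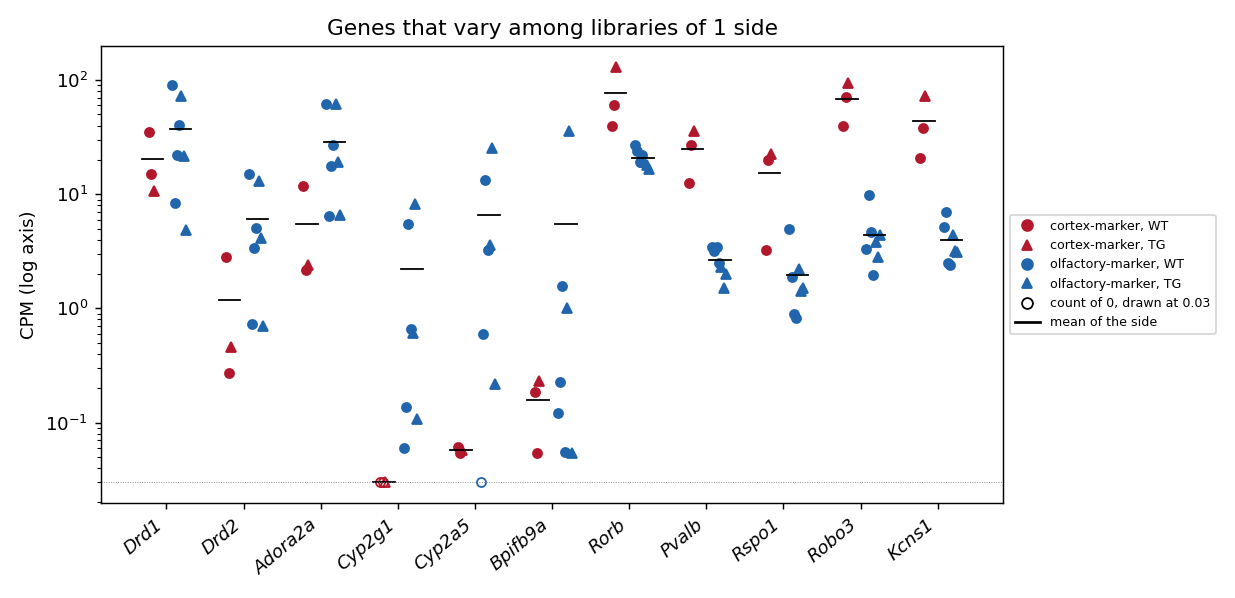
Levels in CPM (log axis) of 11 genes that vary among libraries of the same side, 1 point per library, with circles for WT and triangles for TG, a line at the mean of each side and open symbols for a count of 0. The striatal genes Drd1, Drd2 and Adora2a spread widely among olfactory-marker libraries, Drd1 from 4.91 to 89.9 CPM, and Cyp2g1, Cyp2a5 and Bpifb9a are highest in TG male 1.

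Whether the contrast between sides depended on genotype was not used in choosing the libraries and was tested. At an adjusted p of 0.05 in edgeR (quasi-likelihood test, adjusted by Benjamini-Hochberg), 0 of 16625 genes passed, and 1247 (7.5%) had an unadjusted p under 0.05. The DESeq2 Wald test called 55 and limma-voom 0. The smallest p values were those of Col6a2, a collagen VI chain, Nos1, the neuronal nitric oxide synthase, and Kcnma1, the BK potassium channel. Col6a2 lay at 44.9 and 38.5 CPM in the WT and 14.1 CPM in the TG cortex-marker library, and at 20.3 to 25.4 CPM in the other 7. Its interaction was -1.45 ± 0.17, with an adjusted p of 0.150 in edgeR. Nos1 lay at 13.4, 9.53 and 3.44 CPM against 21.0 to 26.3, an interaction of -1.92 ± 0.25 with an adjusted p of 0.176 in edgeR. Both values rest on TG male 4, the only TG library of its side. Of simulated interactions of 2-fold 26% were recovered, and of 4-fold 74%. Within WT libraries alone 1855 of 16625 genes were separated. TG alone leaves 1 cortex-marker library, where no overlap is easier to meet, so the separated genes of WT and TG cannot be set against each other.

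With side as a covariate, 40 genes (0.241% of those tested) differed between TG and WT in edgeR at the same threshold, 15 higher and 25 lower in TG. Of these, 11 had names that begin with Pcdh, the protocadherins, and 13 lay on chromosome 18. The counts overlap, since Pcdhb8, Pcdhga4, Pcdhgb4 and Pcdhb3 are in both. Of the 40, only Pm20d1, which makes N-acyl amino acids, and Sstr4, a somatostatin receptor, were also separated between the sides. Pm20d1 rose in TG by 0.78 ± 0.12 on the log2 scale, with an adjusted p of 0.0325 in edgeR, and lay lower on the cortex-marker side, with a difference of -1.09 ± 0.14. Its genotype call was lost in 9 of 10 fits that left out 1 library, with values of 0.72 to 0.86. Without TG male 4, 20 genes passed for genotype, and without TG male 1, TG female 2 or TG male 3, 24, 25 and 26.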

How the data were processed

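RNA from hemisphere samples was sequenced after removal of ribosomal RNA with a stranded kit, per the labels' protocols, while the labels' molecule field reads polyA RNA, so how noncoding RNA was sampled is uncertain. The authors deposited unnormalized read counts, 1 per gene and library, for 27179 NCBI gene IDs in 15 libraries. STAR 2.7.5b, the build GRCm38 and the counter featureCounts of Subread are named in the submitters' processing notes. The use of strand and the treatment of reads with several matches were not given in the sources used here, so genes with near copies or antisense partners are uncertain. IDs were matched to RefSeq names on GRCm38.p6 for 25275, and 1886 IDs, with 0.836% of all counts, had no symbol.

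CPM thresholds used library totals, and all other CPM values used TMM. In edgeR 4.0.16 (R 4.3.3), filterByExpr by side left 16625 genes, and side and genotype were fitted with the robust quasi-likelihood method, with Benjamini-Hochberg adjustment at 0.05. The contrast of sides is described without a test, because measured values chose the sides. Side by genotype, and genotype with side as covariate, were tested, and these p-values measure the spread between samples taken as independent. Sample titles share a leading number within each group of the same genotype and sex. Whether that number marks a litter, a cage or only the group is not given, and the p-values do not allow for it. The libraries and the members of 41 gene lists were chosen with earlier results of these data known. A limit of 3 counts corresponds to 0.14 to 0.19 CPM in these libraries and covers counting error only.

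Genes were named by a rule. It took Neurod6, Fezf2, Omp and Eomes in all cases. It took 15 per direction with the largest difference among separated genes with at least 10 CPM on the higher side, leaving out predicted genes, pseudogenes, odorant receptors and IDs with no symbol. It took up to 4 separated members per list, and the genes called for genotype or with the smallest p for the interaction. Other names, such as Drd1, Adora2a, Cyp2a5, Bpifb9a, Rspo1, Scnn1a, Sst, Frzb, Emx1, Inhba, Arc, Fos, Dcx, Sstr4 and the further list members, were chosen after their values were seen. Promoter windows came from RefSeq for 12472 of the 16625 genes.

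On simulated counts, 74% of 2-fold and 94% of 4-fold differences between sides fell under edgeR's adjusted p threshold of 0.05. For the interaction these shares were 26% and 74%, and for genotype 80% and 94%. Separation, by which the sides are described here, was not scored. For the sides, all other genes were simulated with no difference, unlike the real libraries. DESeq2 1.42.0, limma-voom from limma 3.58.1, other scalings, other filters, sex and replicate number as terms, each genotype alone, a fit on all 15 libraries, and each library left out were tried as alternatives. Results for some genes that the rule named are not reported here.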

Additional observations from a re-analysis of the deposited data

Results flagged for a closer look

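Of 44 groups of values examined for a library far from the rest, 5 stood apart, where the gap to the nearest library divided by the group's range passed Dixon's critical value of 0.568 for 7 libraries. Chance flags about 1 in 20 such groups. All 5 concern the mean log2 CPM of a gene list on the olfactory-marker side. In WT male 1 the GABA and glycine receptor subunits had the highest value of the 7, at 5.478, while bulb interneurons, at 6.133, and neuroblasts and their precursors, at 4.823, had the lowest. In WT male 2 the pallial excitatory neurons had the highest value, at 6.962, against 5.883 to 6.346 in the other 6. In TG female 2 the microglia list had the highest value, at 5.187. In the same library Drd1, Adora2a and the interferon genes were also high, with the values given above.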

How the results depend on the processing

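The number of separated genes, 1893, was 546 with a minimum difference of 2, 6484 with no minimum and 3297 in TG libraries alone, where the cortex-marker side is 1 library. Leaving out 1 library at a time gave 1807 to 2374, the highest without WT male 4. The contrast of sides is a description, and the number of genes under edgeR's threshold there, 8061, is no test of it. That number was 3957 in WT libraries alone and ran from 5276 without TG male 4 to 8788 without WT male 1. With library totals in place of TMM, 2551 of 9061 genes were higher and 6510 lower in the cortex-marker libraries, against 4104 and 3957 with TMM. For the interaction, DESeq2 called 55 genes, and leave-one-out fits called 0 to 2, with 1 without WT male 4 and 2 without WT female 2. It could not be fitted without TG male 4. For genotype, DESeq2 called 92 genes against 40 in edgeR, and leave-one-out fits 20 to 39. With the replicate block, 4429 genes were under that threshold between sides, and 4 passed for genotype and 0 for the interaction. Deviations of same-numbered libraries had correlations of -0.56 to 0.217 over 6 pairs, and those of differently numbered libraries -0.375 to 0.573 over 20. So few pairs cannot settle whether same-numbered samples share more than a number. None of the 123 differences between sides that were recomputed changed direction under any setting run for them. All were of separated genes, in which leaving out libraries could hardly reverse a difference, so this is no check of the contrast. Genes named outside the rule, such as Sst, Emx1 and Drd1, were not recomputed.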
